A study of Mus musculus with 12 samples.

Results

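The BCL2 family of survival and death genes was examined through 19 of the 45101 probe sets of an Affymetrix mouse array, chosen as the probe sets of 10 named genes. These were the survival genes Bcl2, Bcl2l1, Mcl1 and Bcl2a1, the pore-forming death gene Bax, and the genes Bcl2l11, Bik, Bbc3, Bid and Pmaip1, which encode death activators. Proteins of this family decide whether the outer mitochondrial membrane stays intact. Bcl2, Bcl-xL (from Bcl2l1), Mcl1 and A1 (from Bcl2a1) hold the death proteins in check, Bax opens the membrane once released, and the BH3-only proteins Bim (from Bcl2l11), Bik, Puma (from Bbc3), Bid and Noxa (from Pmaip1) start the process by binding the other members. In T cells, IL-2 and related cytokines that signal through STAT5 are known to sustain Bcl2, and Bim is known for the death of T cells that lose cytokine support.

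The study asked which transcripts depend on IL-2 in regulatory T (Treg) cells and in activated effector T cells. It used 4 groups of CD4+ CD25hi spleen T cells, with 3 arrays in each. Treg cells were sorted fresh from mice labelled C57BL/6-2Rbeta-WT/thymus, called transgenic here, and from normal C57BL/6 mice. Effector cells came from both kinds of mice as well, sorted once whole spleen cells had been stimulated for 48 hours by anti-CD3, which engages the T cell receptor complex. The transgenic mice lack their own IL-2 receptor beta chain and carry a receptor beta transgene that the label places in the thymus, and the study treats their peripheral T cells as defective in IL-2 receptor signalling. Transgenic Treg arrays 1, 2 and 3 pooled 4, 8 and 3 mice, at 33, 13 and 7 to 16 weeks of age, and C57BL/6 Treg arrays pooled 8, 8 and 15 mice, at 12, 12 and 10 weeks. Each effector array held 1 mouse, at 15, 14 and 9 weeks for transgenic arrays 1, 2 and 3 and at 10, 14 and 14 weeks for C57BL/6 arrays. Values are log2 intensities made by the authors with GCRMA, which corrects probe brightness for background and summarises the probes of a set, so a difference of 1 is a 2-fold difference. The number of arrays limits the precision.

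Transgenic effector array 3 stood apart from its group. Its purification label describes fresh spleen cells, against its title and source name, and its post-sort share of CD4+ CD25+ cells was the lowest, at 99%. In Treg cells, arrays 1 of both strains deviated together and so did arrays 3, while arrays 2 hardly did (correlation 0.10), as described under the processing. The deposited table holds probe set identifiers without genes, so the disrupted receptor gene and cell type markers other than the transferrin receptor control probe set were not analysed here. Transferrin receptor, the iron-uptake receptor of activated and dividing cells, read 6.13, 6.35 and 6.96 on the transgenic and 4.39, 6.22 and 7.66 on the C57BL/6 Treg arrays. It read 10.19, 9.76 and 8.02 on the transgenic and 10.20, 9.19 and 10.43 on the C57BL/6 effector arrays. Culture, activation and the pooling of mice all coincided with the population, and the design cannot separate them: their effects and that of the population cannot be told apart.

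Of the 19 probe sets, 17 had a log2 intensity of 5 or more on 3 or more arrays and were tested. In Treg cells, 1 of the 17 differed between strains in a linear model over all probe sets (limma, Benjamini-Hochberg adjusted p under 0.05), against 1.19% of all 18271 tested probe sets. It was a Bik probe set, higher in transgenic mice (0.389% of all were called higher and 0.805% lower). In effector cells 2 of the 17 differed, a Bik probe set that was higher and a Bcl2 probe set that was lower in transgenic mice, against 2.99% of all (1.92% higher and 1.08% lower). The strain change itself differed between the populations in 2 of the 17, both of Bcl2, against 2.26% of all (0.744% with a positive and 1.52% with a negative difference). Median log2 changes of the 17 were -0.057 in Treg and 0.27 in effector cells, where the medians of all tested probe sets were 0.028 and -0.0053. At an unadjusted p under 0.05, 4 of the 17 passed in Treg cells and 5 in effector cells. The share of all tested probe sets at that level was not computed, so nothing is read from these counts. The strain groups did not overlap for 3 of the 17 in Treg cells, against 14.8% of all probe sets, and for 6 of the 17 in effector cells, against 22.8%.

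**Figure D1:**
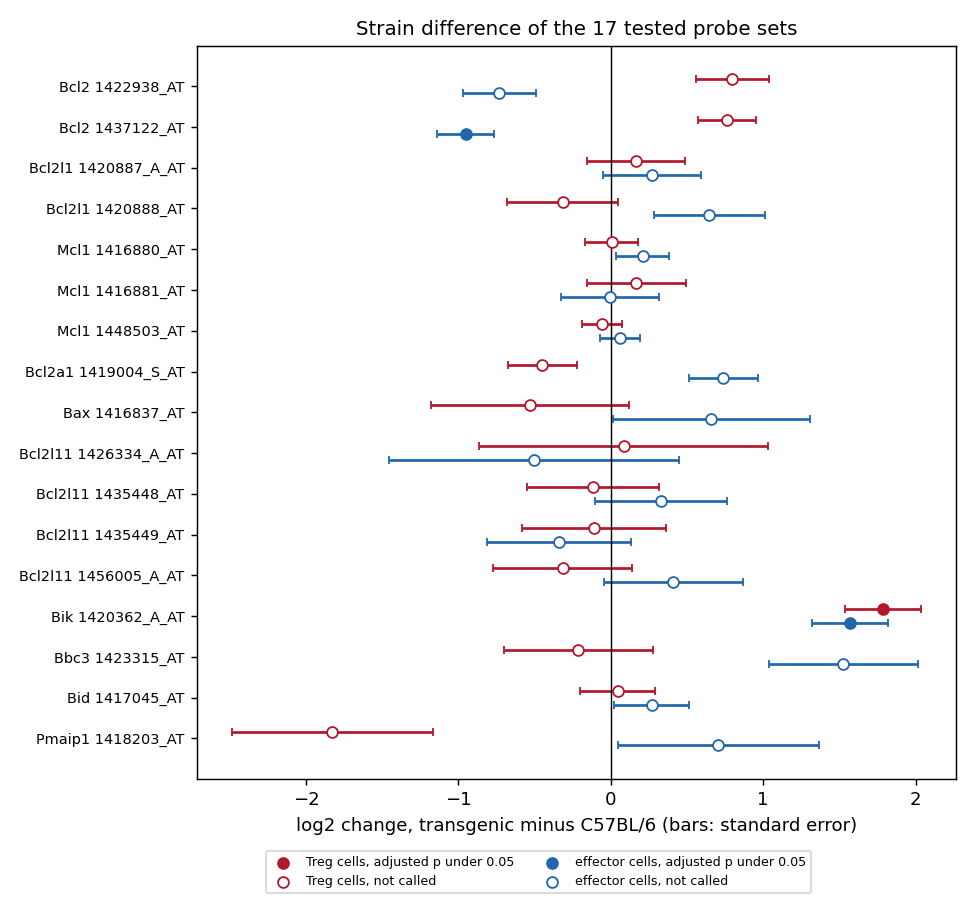
Log2 change (transgenic minus C57BL/6, x axis) of each tested probe set in Treg cells (red, upper) and effector cells (blue, lower), with the standard error as a bar and n = 3 arrays per group. Filled points, adjusted p under 0.05, are Bik in both populations and Bcl2 1437122_AT in effector cells, and both Bcl2 probe sets lie on opposite sides of 0 in the populations.

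Bcl2, the founding survival member, differed between strains in opposite directions in the populations. On probe set 1437122_AT, Treg cells read 11.36, 10.87 and 11.32 on transgenic arrays 1, 2 and 3, against 10.30, 10.40 and 10.55 on C57BL/6 arrays. All transgenic Treg arrays lay above all C57BL/6 Treg arrays, though the difference did not pass the test across all probe sets. Effector cells read 8.97, 9.10 and 9.11 on the transgenic arrays, against 9.63, 10.29 and 10.11 on the C57BL/6 arrays. Here all transgenic arrays lay below all C57BL/6 arrays, and Bcl2 fell in transgenic effector cells. Its log2 change was -0.95 with a standard error of 0.19, a level 1.94-fold lower (limma adjusted p = 0.0191). In Treg cells the log2 change was 0.76 (standard error 0.19, limma adjusted p = 0.0986). The difference between these strain changes was 1.72 (standard error 0.27, limma adjusted p = 0.00665).

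A second Bcl2 probe set, 1422938_AT, showed the same arrangement of the arrays. Transgenic Treg arrays read 9.30, 8.52 and 9.10 and C57BL/6 Treg arrays 7.94, 8.08 and 8.50. Transgenic effector arrays read 7.42, 7.57 and 7.00 and C57BL/6 effector arrays 7.92, 8.01 and 8.25. Neither pair of groups overlapped, although in Treg cells the nearest arrays of the strains, transgenic array 2 and C57BL/6 array 3, were close. The log2 changes were 0.80 in Treg and -0.73 in effector cells (standard error of each 0.24, limma adjusted p = 0.218 and 0.159). Their difference was 1.53 (standard error 0.34, limma adjusted p = 0.0442), and with the replicate number as a block it no longer passed (limma adjusted p = 0.0861). Same-numbered Treg arrays differed by 1.36, 0.44 and 0.60 on this probe set and by 1.05, 0.46 and 0.77 on 1437122_AT, transgenic minus C57BL/6. The third Bcl2 probe set, 1427818_AT, lay between 2.80 and 3.10 on all 12 arrays, below the level used for filtering, and was not tested.

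The fall of Bcl2 in effector cells was close to the threshold. Left without C57BL/6 effector array 2 or 3 or transgenic effector array 1 or 2, the change on 1437122_AT was -0.81, -0.90, -0.91 and -0.97, with limma adjusted p = 0.0999, 0.0589, 0.0593 and 0.0584. Without transgenic effector array 3 it was -0.98 (limma adjusted p = 0.0415). The effector call on this probe set was also lost without a filter on low values (limma adjusted p = 0.0552) and with the 6 effector arrays fitted alone. The difference between populations on this probe set passed under each of the 22 alternatives run, whereas on 1422938_AT of Bcl2 it lost its call without any single array except C57BL/6 Treg array 3 or transgenic Treg array 2. With array weights the Bcl2 changes in Treg cells passed on both probe sets, at 0.75 on 1437122_AT and 0.82 on 1422938_AT (limma adjusted p = 0.0326 and 0.0176). That setting called more of all tested probe sets too, at 6.74% in Treg cells, 16.6% in effector cells and 13.8% for the difference.

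The promoter window of Bcl2 is shown because Bcl2 was the family gene whose strain change differed between the populations. It is a RefSeq window of 300 bases (GRCm38.p6, chr1:106714241-106714540, minus strand), from 250 bases before to 50 after the annotated start. Capitals mark GC boxes (GGGCGG on either strand), of which a search found 7.

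Bcl2: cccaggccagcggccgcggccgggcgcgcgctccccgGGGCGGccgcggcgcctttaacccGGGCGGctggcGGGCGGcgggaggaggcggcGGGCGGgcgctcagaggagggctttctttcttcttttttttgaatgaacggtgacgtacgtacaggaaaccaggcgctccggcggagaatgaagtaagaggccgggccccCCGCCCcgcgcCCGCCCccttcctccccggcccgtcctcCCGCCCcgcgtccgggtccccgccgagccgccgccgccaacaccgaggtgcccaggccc

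A GC box was found in 35.7% of the 32851 RefSeq windows of this kind. No match to the STAT motif TTCNNNGAA on either strand lay in this window or in any of the 12 windows found for 7 of the 10 genes, and 8.3% of all windows held one. The absence of these letters says nothing of sites outside the windows.

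**Figure D2:**
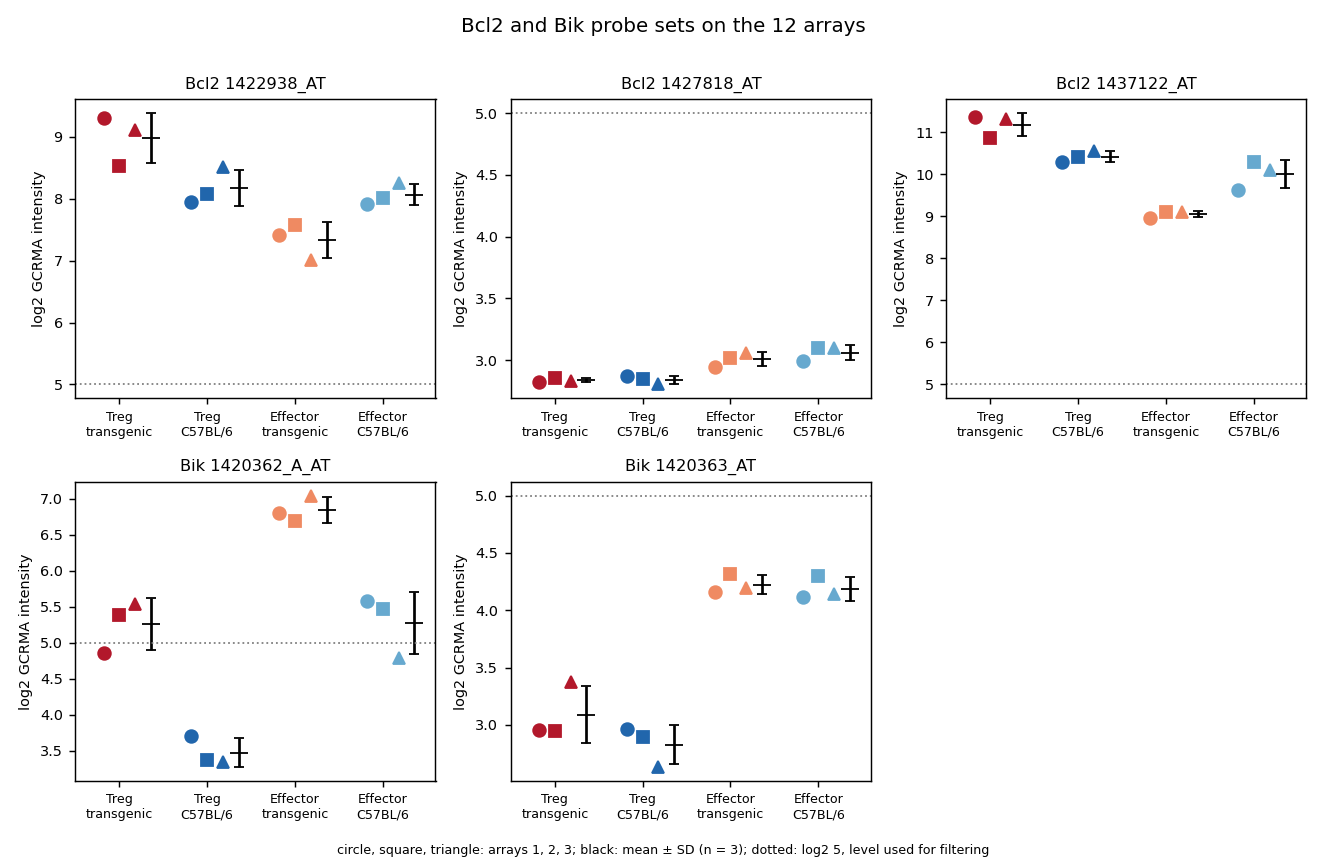
Log2 GCRMA intensity (y axis) of the 3 Bcl2 and 2 Bik probe sets in the 4 groups (x axis), with 1 symbol per array, the mean ± SD in black (n = 3) and the filter level of 5 dotted. On 1437122_AT transgenic arrays lie above C57BL/6 arrays in Treg cells and below them in effector cells, and on Bik 1420362_A_AT they lie above in both.

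The other survival genes did not pass the test between strains in either population in the full fit. Bcl2a1, which encodes A1, was measured by 1419004_S_AT, a probe set shared among related transcripts, and the mouse has near-identical Bcl2a1 copies that it may not separate. It read 12.28, 12.27 and 11.94 on transgenic and 11.67, 11.11 and 11.51 on C57BL/6 effector arrays, which did not overlap. In Treg cells it read 10.43, 10.81 and 10.34 on transgenic and 11.19, 11.24 and 10.49 on C57BL/6 arrays, which overlapped. The log2 changes were 0.74 in effector cells (limma adjusted p = 0.128) and -0.45 in Treg cells (limma adjusted p = 0.622), each with a standard error of 0.23. Their difference, -1.19 with a standard error of 0.32, missed the threshold (limma adjusted p = 0.0972). Without C57BL/6 Treg array 3 the Bcl2a1 difference was -1.43 (limma adjusted p = 0.0215), and with a block for the number in the Treg arrays alone, an alternative chosen after the data were seen, its adjusted p was 0.0446. With array weights Bcl2a1 passed in effector cells (0.72, limma adjusted p = 0.0136), in Treg cells (-0.66, limma adjusted p = 0.0417) and for the difference (-1.39, limma adjusted p = 0.00365).

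Mcl1, a short-lived survival protein, was read by 3 probe sets. On 1448503_AT, transgenic Treg arrays read 13.98, 14.30 and 14.21 and C57BL/6 Treg arrays 14.20, 14.23 and 14.23. Effector arrays read 13.23, 13.20 and 13.02 in transgenic and 13.01, 12.92 and 13.34 in C57BL/6 mice. The strains overlapped in both populations, with log2 changes of -0.057 in Treg and 0.061 in effector cells and a standard error of 0.13. The other Mcl1 probe sets showed no change that passed either, at 0.0073 in Treg and 0.21 in effector cells on 1416880_AT and at 0.17 in Treg and -0.0040 in effector cells on 1416881_AT.

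Bcl2l1, the gene of Bcl-xL, was measured by a pair of probe sets. On 1420888_AT transgenic effector arrays read 9.15, 8.97 and 10.39 and C57BL/6 effector arrays 8.89, 9.24 and 8.44. Array 3 of the transgenic group was the highest, and the log2 change of 0.64 (limma adjusted p = 0.448) was 0.20 without it. On 1420887_A_AT the effector change was 0.27. In Treg cells the changes were -0.31 on 1420888_AT and 0.17 on 1420887_A_AT, and the strains overlapped on both Bcl2l1 probe sets in both populations.

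Bik, a BH3-only gene, was higher in transgenic mice in both populations on probe set 1420362_A_AT. In Treg cells it read 4.86, 5.38 and 5.54 on transgenic arrays, against 3.70, 3.37 and 3.34 on C57BL/6 arrays. In effector cells it read 6.80, 6.69 and 7.04 on transgenic arrays, against 5.58, 5.46 and 4.78 on C57BL/6 arrays. The strains did not overlap in either population, and the C57BL/6 Treg arrays were the lowest of all. Means were 5.26 ± 0.36 in transgenic and 3.47 ± 0.20 in C57BL/6 Treg cells, and 6.85 ± 0.18 in transgenic and 5.28 ± 0.43 in C57BL/6 effector cells (log2, SD, n = 3). In Treg cells the log2 difference was 1.79 (standard error 0.25, limma adjusted p = 0.00432), and no fold is read from it, since the C57BL/6 readings lay below the filter level on all 3 arrays, close to those arrays' medians of 3.09 to 3.25. The probe set passed the filter through the other groups. In effector cells Bik rose by 1.57, or 2.97-fold, (standard error 0.25, limma adjusted p = 0.00592). C57BL/6 effector array 3, at 4.78, also lay below the filter level, so this fold depends on the background correction too. With quantile normalization the Bik effector change was 1.29. The strain changes differed by 0.22 (standard error 0.35, limma adjusted p = 0.851). Fewer cells with the transcript and less transcript per cell cannot be told apart in RNA from many cells.

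Same-numbered Treg arrays differed by 1.15, 2.01 and 2.20 on this Bik probe set, transgenic minus C57BL/6. Transgenic Treg array 1 also lay below the filter level of 5, so the size of the Treg difference depends on the background correction. The second Bik probe set, 1420363_AT, lay between 2.63 and 4.31 on all 12 arrays and was not tested. In Treg cells it read 2.95, 2.94 and 3.37 on transgenic and 2.96, 2.89 and 2.63 on C57BL/6 arrays, and in effector cells 4.16, 4.31 and 4.20 on transgenic and 4.11, 4.30 and 4.14 on C57BL/6 arrays. It therefore overlapped between strains where 1420362_A_AT did not. The Bik call was lost in Treg cells with the provider's sample codes as a block (log2 change 1.58, limma adjusted p = 0.0517) and in effector cells with the 6 effector arrays fitted alone (limma adjusted p = 0.0507).

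Bbc3, the gene of Puma, read 9.00, 8.73 and 10.95 on transgenic and 8.01, 7.95 and 8.15 on C57BL/6 effector arrays. The strains did not overlap, and transgenic array 3 lay far above the rest. The log2 change was 1.52 (standard error 0.49, limma adjusted p = 0.146), and 0.83 with a standard error of 0.30 without that array (limma adjusted p = 0.220). With array weights, which gave that array a weight of 0.23, Bbc3 passed at 0.96 (limma adjusted p = 0.0383). On the same array Bax, Pmaip1, Bcl2l1 1420888_AT and Bcl2l11 1435448_AT and 1456005_A_AT were also the highest of the 6 effector arrays. So were Bik 1420362_A_AT (7.04) and Mcl1 1416880_AT (11.81), and transferrin receptor was the lowest. The part of that array's preparation in these values was not tested. In Treg cells Bbc3 read 7.77, 7.36 and 6.57 on transgenic and 7.54, 7.25 and 7.56 on C57BL/6 arrays, which overlapped, with a log2 change of -0.21 (limma adjusted p = 0.966).

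Bax, whose protein opens the mitochondrial membrane, read 11.45, 11.20 and 12.13 on transgenic and 10.95, 11.07 and 10.79 on C57BL/6 effector arrays. These did not overlap, with a log2 change of 0.66 and a standard error of 0.65 (limma adjusted p = 0.743), and 0.39 without transgenic array 3. That standard error rests on 1 variance shared by the 4 groups. The Bax SD was 0.48 in transgenic and 0.14 in C57BL/6 effector arrays, against 1.39 and 1.12 in the Treg arrays. In Treg cells Bax read 9.48, 9.26 and 6.97 on transgenic and 10.04, 9.40 and 7.86 on C57BL/6 arrays. Array 3 was the lowest in both strains by over 1 log2 unit, and the strain change of -0.53 was within that spread (limma adjusted p = 0.916).

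Pmaip1, the gene of Noxa, had the largest strain difference of the family in Treg cells by size. It read 6.41, 8.04 and 7.89 on transgenic and 7.84, 9.50 and 10.48 on C57BL/6 Treg arrays. The groups overlapped, since transgenic array 2 lay above C57BL/6 array 1, but each transgenic array lay below the C57BL/6 array of its number, with differences of -1.44, -1.45 and -2.60. The log2 change was -1.83 (standard error 0.66, limma adjusted p = 0.343), and with the replicate number as a block the standard error was 0.37 and the adjusted p 0.0950. With array weights Pmaip1 passed, at -1.75 (limma adjusted p = 0.0204). Transferrin receptor, given above, was also lowest on array 1 in both strains, and its part in the Pmaip1 values was not tested. In effector cells Pmaip1 read 7.30, 7.03 and 8.80 on transgenic and 7.00, 6.97 and 7.05 on C57BL/6 arrays, which overlapped. The effector change of 0.71 (limma adjusted p = 0.721) was 0.16 without transgenic array 3.

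Bcl2l11, the gene of Bim, varied more between arrays of a group than between strains. On 1426334_A_AT the transgenic Treg arrays read 4.75, 5.90 and 6.91 and the C57BL/6 Treg arrays 3.42, 6.13 and 7.76. Array 1 was the lowest and array 3 the highest in both strains. On 1435449_AT the same order held, at 6.89, 7.67 and 8.33 in transgenic and 7.26, 7.54 and 8.42 in C57BL/6 Treg cells. Strain changes in Treg cells on the 4 Bcl2l11 probe sets lay between -0.32 and 0.083, with standard errors of 0.43 to 0.95 and limma adjusted p of 0.935 to 0.997.

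In effector cells the Bcl2l11 probe sets did not move together. The strain changes were -0.50 on 1426334_A_AT and -0.34 on 1435449_AT, against 0.33 on 1435448_AT and 0.41 on 1456005_A_AT, and none passed the test. Transgenic effector array 3 was the highest of the group on 1435448_AT (11.79, against 10.27 and 10.59) and on 1456005_A_AT (12.15, against 10.69 and 11.01), but the lowest on 1426334_A_AT (7.44, against 7.89 and 7.97). Without that array the changes on 1435448_AT and 1456005_A_AT were -0.12 and -0.025.

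Bcl2l11 and Bbc3 are known targets of FOXO transcription factors, and 1 of 2 Bcl2l11 and 1 of 3 Bbc3 RefSeq promoter windows held the forkhead letters GTAAACA on either strand. No other of the 12 member windows did, and 3.65% of all windows held them. Capitals mark the match. The Bcl2l11 window shown is chr2:128125788-128126087 on the plus strand and the Bbc3 window shown is chr7:16310011-16310310 on the plus strand (both GRCm38.p6). A match is a description of the letters and not of binding.

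Bcl2l11: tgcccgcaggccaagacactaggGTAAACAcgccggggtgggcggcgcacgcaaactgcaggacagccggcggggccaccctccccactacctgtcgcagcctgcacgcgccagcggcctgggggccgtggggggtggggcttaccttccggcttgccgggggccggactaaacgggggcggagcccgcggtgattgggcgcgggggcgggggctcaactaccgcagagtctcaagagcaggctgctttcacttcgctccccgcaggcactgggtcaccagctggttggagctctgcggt

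Bbc3: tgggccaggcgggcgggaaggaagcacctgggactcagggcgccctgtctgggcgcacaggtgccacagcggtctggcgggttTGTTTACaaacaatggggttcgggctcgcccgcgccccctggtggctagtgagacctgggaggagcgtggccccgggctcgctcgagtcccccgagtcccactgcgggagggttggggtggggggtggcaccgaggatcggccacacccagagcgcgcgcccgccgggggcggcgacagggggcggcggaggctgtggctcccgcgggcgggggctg

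Bid, whose protein links death receptors to mitochondria, was the most even BH3-only gene. It read 9.05, 8.61 and 8.44 on transgenic and 8.99, 8.55 and 8.43 on C57BL/6 Treg arrays, so each transgenic array lay within 0.069 of the C57BL/6 array of its number. The effector arrays read 9.37, 9.10 and 8.59 in transgenic and 8.93, 8.82 and 8.49 in C57BL/6 mice, and the strains overlapped. The Bid log2 changes were 0.047 in Treg and 0.27 in effector cells, with a standard error of 0.25.

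**Figure D3:**
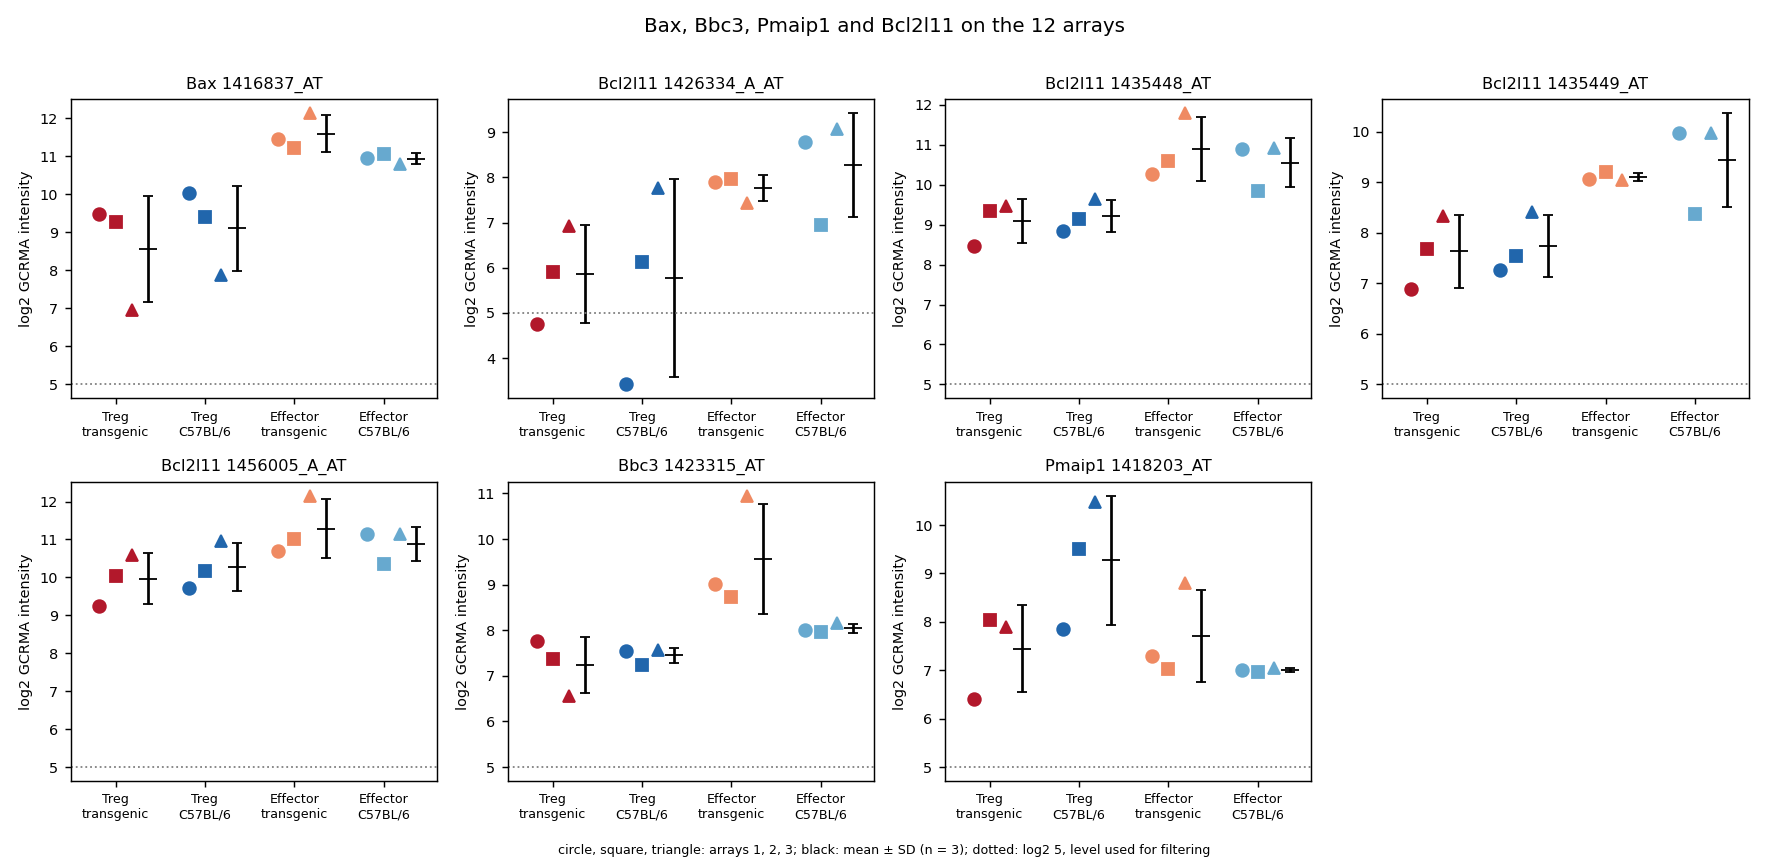
Log2 GCRMA intensity (y axis) of Bax, Bbc3, Pmaip1 and the 4 Bcl2l11 probe sets in the 4 groups (x axis), with 1 symbol per array, the mean ± SD in black (n = 3) and the filter level of 5 dotted. Transgenic effector array 3 (orange triangle) is the highest effector array for Bax, Bbc3, Pmaip1 and Bcl2l11 1435448_AT and 1456005_A_AT, and in Treg cells array 3 is the lowest for Bax and the highest for Bcl2l11 in both strains.

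Between populations, most of the family differed, as did most probe sets on the array. In transgenic mice 13 of the 17 tested probe sets differed, 4 higher and 9 lower in Treg than in effector cells, against 70% of all tested probe sets (30% higher and 40% lower). In C57BL/6 mice 10 of the 17 differed, 3 higher and 7 lower, against 73.8% of all (31.7% higher and 42% lower). The groups did not overlap for 15 of the 17 in transgenic mice (73.9% of all) and for 10 of the 17 in C57BL/6 mice (76.7% of all). Median Treg minus effector differences of the 17 were -1.47 in transgenic and -0.59 in C57BL/6 mice, where those of all tested probe sets were -0.21 and -0.26. These medians depend on the scale of the arrays. With quantile normalization the C57BL/6 differences of Bcl2l11 1456005_A_AT, Bcl2a1 and Bid moved from -0.59, -0.46 and -0.092 to 0.071, 0.25 and 0.35. That of Bik moved the other way, from -1.80 to -2.13. The medians were not recomputed there, so no shift of the family is read from them. Both comparisons join different arrays, and their difference is the difference of strain changes given above.

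Among the survival genes, Treg cells had less Bcl2l1 and more Mcl1 in both kinds of mice. Bcl2l1 1420887_A_AT averaged 6.61 ± 0.59 in Treg and 8.67 ± 0.17 in effector cells of transgenic mice, and 6.44 ± 0.55 in Treg and 8.40 ± 0.20 in effector cells of C57BL/6 mice (log2, SD, n = 3). Its log2 differences were -2.07 (limma adjusted p = 0.000132) and -1.96 (limma adjusted p = 0.000175). Mcl1 1448503_AT was higher in Treg cells by 1.01 in transgenic (limma adjusted p = 3.03e-05) and by 1.13 in C57BL/6 mice (limma adjusted p = 1.11e-05). Mcl1 1416880_AT was also higher in Treg cells, by 0.64 and 0.84, while 1416881_AT did not pass in either (0.59 and 0.42) in the full fit. It passed in both with centred arrays (0.89 and 0.73) or quantile-normalized arrays (1.22 and 1.11), and with array weights in C57BL/6 mice (0.52, limma adjusted p = 0.00945) but not in transgenic mice (0.32).

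Bcl2 was higher in Treg than in effector cells of transgenic mice, by 2.13 on 1437122_AT (limma adjusted p = 1.47e-06) and by 1.64 on 1422938_AT (limma adjusted p = 8.84e-05). In C57BL/6 mice the Bcl2 differences were 0.41 (limma adjusted p = 0.0680) and 0.12 (limma adjusted p = 0.677). The C57BL/6 value on 1437122_AT passed with arrays centred on their medians (0.73, limma adjusted p = 0.00584), with quantile normalization (1.04, limma adjusted p = 0.000536), with array weights (0.57, limma adjusted p = 0.00395) and without C57BL/6 effector array 2 (0.55, limma adjusted p = 0.0306). On 1422938_AT the Bcl2 value was 0.43 with centred and 0.48 with quantile-normalized arrays and passed in neither. Bcl2a1 was lower in Treg cells of transgenic mice (log2 difference -1.64, limma adjusted p = 5.45e-05), and in C57BL/6 mice its difference was -0.46 (limma adjusted p = 0.0892), or 0.25 with quantile normalization.

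Of the death genes, Bik 1420362_A_AT was lower in Treg than in effector cells, by a log2 difference of -1.59 in transgenic (limma adjusted p = 0.000153) and -1.80 in C57BL/6 mice (limma adjusted p = 4.99e-05). The C57BL/6 size carries the same limit as the strain difference, with its Treg readings below the filter level. Bax differed by -3.03 in transgenic (limma adjusted p = 0.00142) and by -1.83 in C57BL/6 mice (limma adjusted p = 0.0238). The C57BL/6 call for Bax was lost with centred arrays (-1.52, limma adjusted p = 0.0573), with quantile normalization (-1.24) and without C57BL/6 effector array 1 or 2 or C57BL/6 Treg array 3 (-1.83, -1.77 and -1.21). Bcl2l11 was lower in Treg than in effector cells on 3 of its 4 probe sets in each kind of mouse. In the full fit 1426334_A_AT did not pass in transgenic mice (-1.91, limma adjusted p = 0.0928), and 1456005_A_AT did not in C57BL/6 mice (-0.59, limma adjusted p = 0.259). The first passed in 4 of 21 alternatives (lowest limma adjusted p = 0.0129), and the second with array weights alone (-0.81, limma adjusted p = 0.00961). Under quantile normalization the C57BL/6 call on 1435448_AT and the transgenic calls on 1435449_AT and 1456005_A_AT of Bcl2l11 were lost (limma adjusted p = 0.127, 0.0547 and 0.210). With centred arrays the C57BL/6 call on 1426334_A_AT and the transgenic call on 1456005_A_AT of Bcl2l11 were lost (limma adjusted p = 0.0507 and 0.0628), the first also with the arrays of C57BL/6 mice fitted alone (limma adjusted p = 0.0860).

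Single arrays also decided several of these Bcl2l11 calls. In C57BL/6 mice the difference on 1426334_A_AT, -2.50 in the full fit (limma adjusted p = 0.0327), was -1.32 without Treg array 1 (limma adjusted p = 0.131), and its call was also lost without Treg array 2 or effector array 1 or 3 (limma adjusted p = 0.0526, 0.0935 and 0.107). On 1435448_AT the C57BL/6 difference of -1.35 was lost without Treg array 1 or effector array 1 or 3 (limma adjusted p = 0.0511, 0.0556 and 0.0561). In transgenic mice the calls on 1435449_AT (-1.47) and 1456005_A_AT (-1.32) were lost without Treg array 1 (limma adjusted p = 0.0696 and 0.0970), and the call on 1456005_A_AT also without effector array 3 (limma adjusted p = 0.0942).

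Bbc3 was lower in Treg cells of transgenic mice, by a log2 difference of -2.33 (limma adjusted p = 0.00124). That size owed much to transgenic effector array 3, for it was -1.64 without that array, and the call held in all 21 alternatives. In C57BL/6 mice Bbc3 differed by -0.59 (limma adjusted p = 0.291). The C57BL/6 difference passed in 2 of 21 alternatives, 1 of them array weights (-0.74, limma adjusted p = 0.0135). Pmaip1 was higher in Treg cells of C57BL/6 mice, by 2.27 (limma adjusted p = 0.00862), and differed by -0.26 in transgenic mice (limma adjusted p = 0.737). The differences between the strain changes of Bbc3 and Pmaip1, -1.74 and -2.53, did not pass (limma adjusted p = 0.296 and 0.253) in the full fit, though that of Pmaip1 passed with array weights (-1.99, limma adjusted p = 0.0309), so the full fit does not show that the populations differ in their strain response. Bid did not pass in either kind of mouse in the full fit, with differences of -0.32 in transgenic and -0.092 in C57BL/6 mice. It passed with array weights in transgenic mice (-0.53, limma adjusted p = 0.0233). With quantile normalization the Bid differences were 0.14 in transgenic and 0.35 in C57BL/6 mice.

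**Figure D4:**
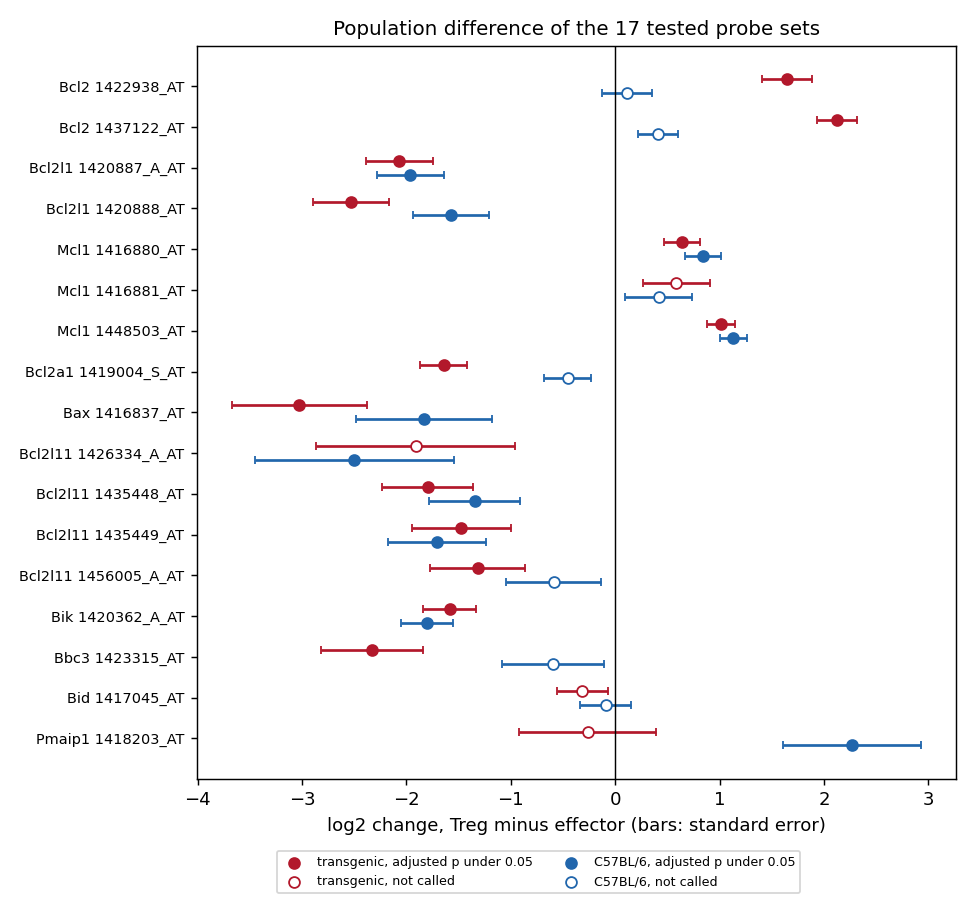
Log2 difference (Treg minus effector, x axis) of each tested probe set in transgenic (red, upper) and C57BL/6 mice (blue, lower), with the standard error as a bar and n = 3 arrays per group. Mcl1 lies right of 0 and Bcl2l1, Bax and Bik left of 0 in both, while both Bcl2 probe sets pass in transgenic mice alone, at 2.13 and 1.64.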

How the data were processed

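Affymetrix arrays of 12 samples were analysed, 3 per group, with groups and replicate numbers taken from the sample titles. The deposited values are log2 intensities, 1 per probe set and array, made with GCRMA per the submitters' processing notes (version not given in the sources used here). It is not stated if they were normalized as 1 set. The lowest values were 0.296 to 0.325 on effector and 0.942 to 0.957 on Treg arrays. The 99th percentiles were 13.48 to 13.55 on effector and 12.90 to 12.98 on Treg arrays. Levels across populations may thus carry a scale difference, and the sizes of population differences depend on it. With quantile normalization, Mcl1 1416880_AT in C57BL/6 mice moved from 0.84 to 1.54 and Bik 1420362_A_AT from -1.80 to -2.13.

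The family members and lists were chosen with earlier results of these data known. Gene names of the 19 probe sets come from the list that defines the family, because the deposited table gives identifiers only. For the same reason the lists of related pathway genes, the search for genes of like pattern and most cell type markers were not used here. All 19 members are named, and probe sets of the same gene were kept apart.

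The 64 control probe sets were left out. A probe set was tested if it had a log2 intensity of 5 or more on 3 or more arrays, which held for 18271 of the remaining 45037. Group means were estimated in 1 linear model of the 4 groups (limma 3.58.1 under R 4.3.3, lmFit and eBayes with trend), with two-sided p-values adjusted by Benjamini-Hochberg over all tested probe sets and a threshold of 0.05. The comparisons were of strain within each population, of the 2 strain changes with each other, and of population within each strain. Labels call the arrays biological replicates, and p-values measure the spread between these arrays. The 4 groups share 1 residual variance per probe set, so a standard error also carries the spread of groups outside the comparison. The model was tested on simulated data.

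To check pairing, the residuals of arrays after removal of their group means were correlated across probe sets, which are not independent. Treg arrays with the same number had correlations of 0.58, 0.10 and 0.51, each over the limit of 0.1, so the numbers may pair the Treg arrays, on the evidence of the values alone. The main model has no such block, and fits with it were alternatives. Transgenic Treg array 2 had a correlation of 0.11 with C57BL/6 Treg array 3. Effector arrays with the same number had correlations of 0.21, -0.34 and -0.34 and gave no sign of pairing. Differently numbered effector arrays also passed the limit of 0.1. Transgenic array 2 with C57BL/6 array 3 had 0.42, transgenic array 3 with C57BL/6 array 2 had 0.40, and transgenic array 1 with C57BL/6 array 3 had 0.14. Passing the limit therefore does not by itself show pairing. Alternatives were other filters, normalizations and variance models, weights per array, a fit without the other population, blocks for replicate number and for runs of consecutive provider sample codes among Treg arrays, and omission of each array. Promoter windows of 300 bases came from RefSeq (GRCm38.p6).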

Additional observations from a re-analysis of the deposited data

Results flagged for a closer look

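The strain change of Bcl2 differed between the populations by the test of the difference itself. On 1437122_AT the Treg change minus the effector change was 1.72 on the log2 scale (limma adjusted p = 0.00665), and on 1422938_AT it was 1.53 (limma adjusted p = 0.0442). All 3 transgenic arrays lay above the C57BL/6 arrays in Treg cells and below them in effector cells on both probe sets. Groups of 3 arrays were too small for a search for single outlying arrays.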

How the results depend on the processing

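Of 28 calls among the members over the 5 comparisons, 19 held under every alternative run for them, and no called value changed sign in the 1831 recomputed member values, where 42 lost and 30 gained a call. In Treg cells the strain count of 1 became 0 with a filter at log2 7 (3 members at an unadjusted p under 0.05 in limma), which leaves Bik out, and 0 with the sample codes as a block (4 members), where only 4 arrays inform the strain difference. In effector cells the count of 2 was 1 without a filter, 1 with the filter at log2 7 and 0 with the 6 effector arrays alone (6 members at an unadjusted p under 0.05). For the unadjusted counts no share of all tested probe sets was computed. The difference of strain changes was called for 2 probe sets in the main analysis, for 1 without a filter, 1 with the sample codes as a block and 1 with the replicate block. With the block in the Treg arrays alone it was 3. The replicate block, in which the Bik change in Treg cells had a limma adjusted p of 0.0435, ended the call of Bcl2 1422938_AT for the difference (limma adjusted p = 0.0861) and changed no other call among the members in the 5 comparisons. With array weights, which gave C57BL/6 Treg array 2 a weight of 5.02 and transgenic effector array 3 a weight of 0.23, the counts were 5 in Treg cells, 4 in effector cells and 4 for the difference. The weights also raised the share called of all tested probe sets, to 6.74%, 16.6% and 13.8% in these comparisons. With 1 array left out the member counts ranged from 1 to 1 in Treg cells, 1 to 3 in effector cells, 1 to 3 for the difference, 7 to 11 between populations in C57BL/6 mice and 11 to 14 in transgenic mice. The cause of the other moves was not tested. Values below a log2 of 5 limit the size of the Bik difference, and 3 arrays per group limit every count.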
